A study of Mus musculus with 6 samples.

Results

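The genes described here carry out fatty acid beta-oxidation and ketogenesis in the liver. They were taken by name: 34 gene symbols were given, all 34 were found among the 52459 genes of the count matrix, and all 34 had enough reads to be tested. By the place where their products work, 19 were counted as mitochondrial, 9 as peroxisomal and 6 as working in several or other places of the cell.

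RNA-Seq was performed on whole liver from 6 male mice labelled as strain C57BL6J, 3 that had received a control guide (sgCtrl; mice 5.1, 7.1 and 7.2) and 3 that had received a guide against Prdx2 (sgPrdx2; mice 1.1, 1.3 and 3.2), to learn what loss of this peroxide-removing enzyme does in a diseased liver. All 6 were F1 offspring of Alb-Cre and Cas9 mice, so that Cas9 was made where the albumin promoter drives Cre, in hepatocytes, and all received an AAV8 vector with their guide at 4 to 5 weeks of age. All were then given 100 mg/kg of the carcinogen diethylnitrosamine (DEN) 3 weeks later and, from 1 week after that, a choline-deficient high-fat diet (CDA-HFD) for 6 months, and were killed at 8 months of age. There was no group without DEN or without the diet. Editing was aimed at hepatocytes, and editing of the nonparenchymal cells was not measured here. By immunostaining, the study reports that PRDX2 protein was suppressed in hepatocytes of sgPrdx2 mice. It also describes positive islands that the vector had most likely not reached.

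Beta-oxidation shortens fatty acids from the carboxyl end. A fatty acid is first joined to coenzyme A, long chains cross into mitochondria as carnitine esters, and a repeated cycle of dehydrogenation, hydration, a further dehydrogenation and thiolysis releases acetyl-CoA, which the liver turns into ketone bodies during fasting. Peroxisomes run a parallel cycle on very long and branched chains and produce hydrogen peroxide, the substrate of peroxiredoxins. Many genes of both cycles are targets of the nuclear receptor PPARα.

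Libraries held 37462102 to 56865293 counts in genes, so that a floor of 3 counts corresponded to 0.0555 to 0.0921 CPM (counts scaled to a common library total with TMM). Of 17032 genes tested with edgeR's quasi-likelihood test and Benjamini-Hochberg adjustment over all of them, 567 (3.33%) passed an adjusted p of 0.05, with 305 higher and 262 lower in the sgPrdx2 group; these are the genes termed called, and calls by DESeq2 are named as such. Prdx2 RNA was present at 109, 117 and 132 CPM in sgCtrl 5.1, 7.1 and 7.2 and 99.0, 112 and 149 CPM in sgPrdx2 1.1, 1.3 and 3.2 (log2 fold change 0.01, adjusted p = 0.983), so that its level did not tell the groups apart. The Prdx2 level does not by itself check the labels, since a cut that shifts the reading frame need not remove the RNA. Why the level did not differ was not tested. The TMM factor that puts the libraries on 1 scale ran from 1.12 to 1.17 over the sgCtrl livers and from 0.805 to 0.951 over the sgPrdx2 livers. The 20 hepatocyte markers, each counted in every liver, took 106124 to 118354 CPM in sgCtrl livers against 183367 to 244959 CPM in sgPrdx2 livers. With TMM, 20 of 20 had a positive log2 fold change and 8 were called higher (1.79% of all genes), with a median of 0.84. Of the markers of other cells, 0 were called higher. Called lower (1.54% of all genes) were 2 of 9 tested macrophage markers (summed level 1947 to 2509 against 1259 to 1384 CPM, Cd163 being the 1 marker at 0 counts in a liver), 1 of 10 endothelial, 1 of 10 cholangiocyte, 1 of 10 leukocyte and 0 of 10 stellate cell markers (2300 to 2659 against 1687 to 1770 CPM). At an unadjusted p under 0.05 (11.9% of all genes), 5 macrophage, 5 endothelial, 4 cholangiocyte, 2 leukocyte and 6 stellate cell markers were lower. DESeq2 called 4, 2, 2, 2 and 3 of them lower in that order (5.32% of all genes). In RNA from whole liver, a change in the number of cells of a type and a change in RNA per cell cannot be told apart, and the part of these shifts in the values below was not tested.

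Most fatty acid oxidation genes had a higher mean in sgPrdx2 livers when libraries were scaled with TMM, but not when they were scaled by total counts or to hepatocyte markers, and 1 gene was called. Acaa2, the mitochondrial thiolase, rose 1.76-fold; it was 1 of 34 genes called higher, and 0 were called lower, where 1.79% of all genes tested were called higher and 1.54% lower. The sign was positive for 30 of 34 genes with TMM, for 17 when libraries were scaled by their total counts alone and for 1 when they were scaled to hepatocyte markers, and the median log2 fold change was 0.38 (range -1.21 to 0.96) against -0.02 over all genes. Set against the median of all genes under the same scaling, the median of the 34 lay 0.39 higher with TMM, 0.38 higher with total counts and 0.35 higher with hepatocyte markers, with 29 to 30 of the 34 genes above it. In 17 of 34 genes each sgPrdx2 liver was above each sgCtrl liver (16.7% of all genes), and in 0 was each below (17.5% of all genes). At an adjusted p under 0.10, 9 genes were higher (5.66% of all genes) and 1 lower (4.71%). At an unadjusted p under 0.05, 16 were higher (13.0%) and 1 lower (11.9%). DESeq2, the tool named in the submitters' processing notes, called 12 of the 34 higher (7.12% of all genes) and Acot2 lower (5.32%). Read as a share of all counts in a library, the 34 genes together took 0.966, 0.882 and 0.804% in sgCtrl 5.1, 7.1 and 7.2 and 0.949, 0.901 and 0.823% in sgPrdx2 1.1, 1.3 and 3.2, and these shares overlapped.

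**Figure D1:**
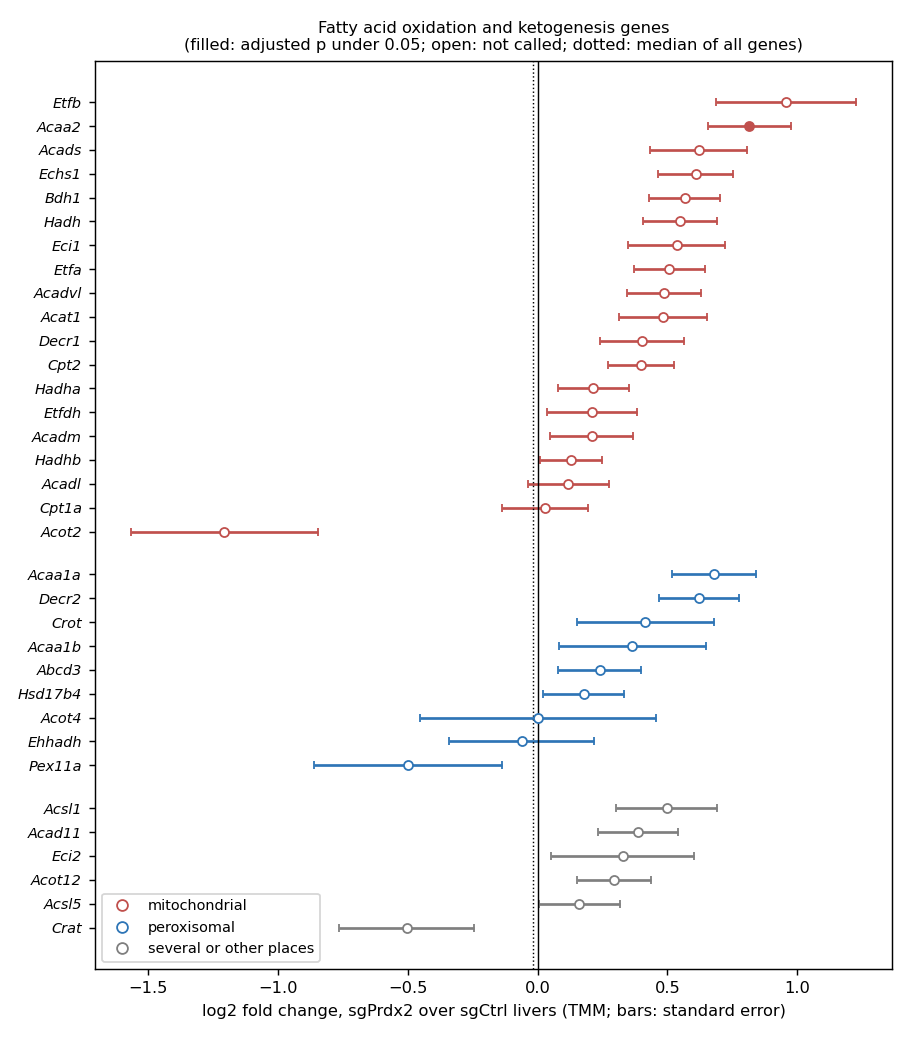
Log2 fold change of each of the 34 genes, sgPrdx2 over sgCtrl livers (n = 3 each) with TMM scaling, with its standard error, sorted within the mitochondrial (red), peroxisomal (blue) and remaining (grey) genes. Acaa2 is the 1 filled point; 30 points lie to the right of zero with this scaling (17 with total counts alone, 1 with hepatocyte markers) and Acot2 lies farthest left at -1.21.

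Mitochondrial genes had the highest median of the 3 groups. Of 19, 18 had a positive sign with TMM (1 of them Acaa2, called), 13 had no overlap with sgPrdx2 higher (16.7% of all genes), 7 were higher at an adjusted p under 0.10 (5.66% of all genes), and the median log2 fold change was 0.48. DESeq2 called 10 of the 19 higher and 1 lower. Their summed level was 4355 to 4610 CPM in sgCtrl livers against 5680 to 6302 CPM in sgPrdx2 livers. Of 9 peroxisomal genes, 7 had a positive sign, 2 had no overlap, 0 were called by edgeR (2 at an unadjusted p under 0.05, 2 by DESeq2), and the median was 0.24, with a summed level of 1842 to 2507 against 2536 to 3034 CPM. Of the 6 remaining genes, 5 had a positive sign, 2 had no overlap, 0 were called by either tool (2 at an unadjusted p under 0.05), and the median was 0.31. The medians of the mitochondrial and peroxisomal genes differed by 0.24 on the log2 scale. This is a description, since the genes of a list are not replicates. In the further lists given below the order was the reverse, with medians of 0.34 for mitochondrial and 0.37 for peroxisomal genes. Taken liver by liver, as the median log2 ratio to the sgCtrl mean, mitochondrial minus peroxisomal, the difference was -0.17, 0.01 and 0.20 in sgCtrl 5.1, 7.1 and 7.2 and -0.06, 0.21 and 0.37 in sgPrdx2 1.1, 1.3 and 3.2. The groups overlapped in this difference, so that mitochondrial genes did not stand above peroxisomal genes in sgPrdx2 livers beyond the spread between livers. The respiratory chain genes, at a median of 0.56, and the hepatocyte markers, at 0.84, were higher still than the mitochondrial genes, and the part of either in these values was not tested.

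**Figure D2:**
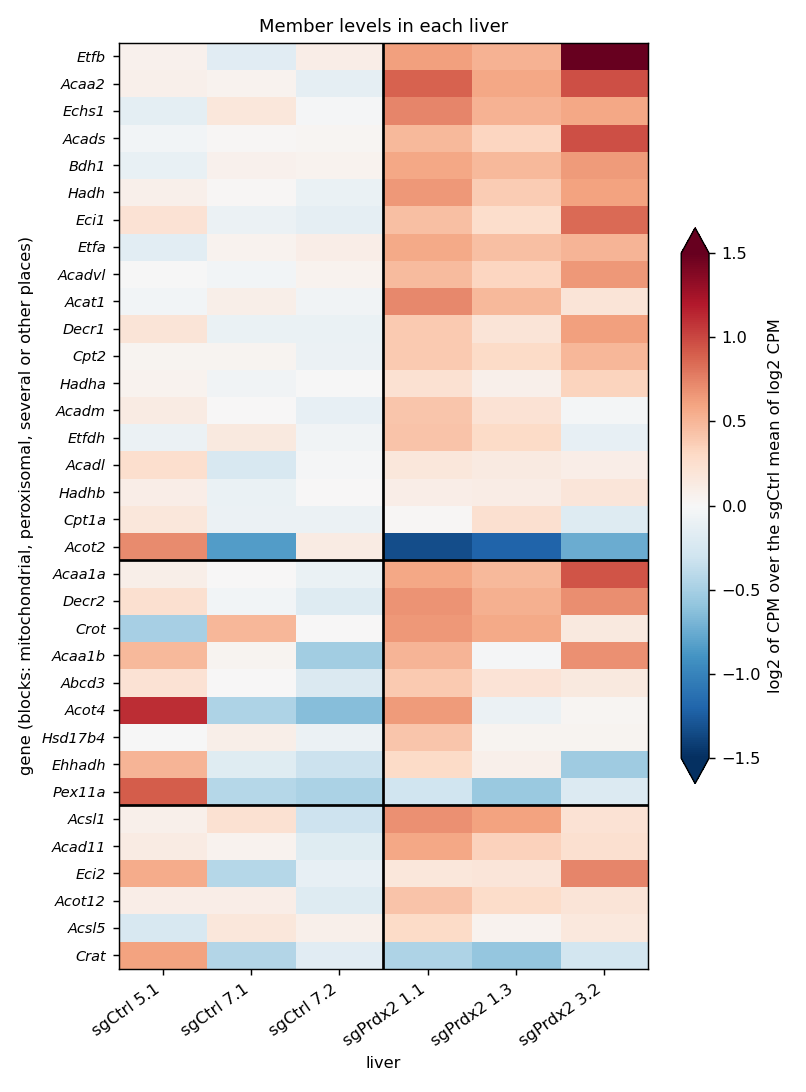
Each of the 34 genes (rows, mitochondrial above, peroxisomal in the middle, remaining below) in each liver (columns), as log2 of its CPM over the sgCtrl mean of log2 CPM, red higher and blue lower, on a scale cut at 1.5. Most mitochondrial rows are red in all 3 sgPrdx2 columns with this TMM scaling, while Acot2 is blue there and Acot4, Pex11a, Ehhadh and Crat are red in sgCtrl 5.1.

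Acyl-CoA synthetases activate fatty acids for entry into the cycle, and Acsl1 is the main form in liver. Acsl1 was counted at 272, 303 and 209 CPM in sgCtrl 5.1, 7.1 and 7.2 and 414, 392 and 300.03 CPM in sgPrdx2 1.1, 1.3 and 3.2, and sgPrdx2 3.2 fell within the range of the sgCtrl livers (log2 fold change 0.50, SE 0.19, adjusted p = 0.166). Acsl5, a second form found on mitochondria and endoplasmic reticulum, was at 233, 308 and 289 CPM in the sgCtrl livers and 335, 286 and 307 CPM in the sgPrdx2 livers (log2 fold change 0.16, SE 0.16, adjusted p = 0.551), with overlapping groups. Neither synthetase was called. Cpt1a, the carnitine palmitoyltransferase of the outer mitochondrial membrane and the regulated step of entry, had nearly equal means, at 441 ± 46.2 CPM in sgCtrl livers against 449 ± 67.7 CPM in sgPrdx2 livers (SD, n = 3; log2 fold change 0.03, SE 0.16, adjusted p = 0.927), with sgPrdx2 1.3 the highest and sgPrdx2 3.2 the lowest of all 6 livers. Cpt2, which returns the chain to coenzyme A on the inner side, did not overlap, at 104 ± 5.34 CPM in sgCtrl livers against 137 ± 10.03 CPM in sgPrdx2 livers (log2 fold change 0.40, SE 0.13, adjusted p = 0.114), but was not called; with DESeq2 its adjusted p was 0.024. Slc25a20, the carrier that brings the carnitine ester across between these enzymes, was at 109, 83.7 and 85.4 CPM in the sgCtrl livers and 112, 98.4 and 119 CPM in the sgPrdx2 livers (log2 fold change 0.24, SE 0.15, adjusted p = 0.360), with overlapping groups.

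The acyl-CoA dehydrogenases take the first electrons and differ in the chain length they accept. Acadvl, for very long chains, was at 333, 325 and 346 CPM in the sgCtrl livers and 465, 419 and 523 CPM in the sgPrdx2 livers and did not overlap (log2 fold change 0.49, SE 0.14, adjusted p = 0.0938). Acads, for short chains, did not overlap either, at 202, 209.6 and 212 CPM in the sgCtrl livers and 292, 259 and 407 CPM in the sgPrdx2 livers (log2 fold change 0.62, SE 0.19, adjusted p = 0.101), and sgPrdx2 3.2 stood well above the other livers. Acadm, for medium chains, and Acadl, for long chains, overlapped between groups (log2 fold change 0.21, SE 0.16, adjusted p = 0.449 for Acadm; log2 fold change 0.12, SE 0.16, adjusted p = 0.667 for Acadl). Acad11, a dehydrogenase for long chains found in several places of the cell, had no overlap at 201 ± 21.8 CPM in sgCtrl livers against 263 ± 31.9 CPM in sgPrdx2 livers (log2 fold change 0.39, SE 0.15, adjusted p = 0.172). None of these 5 was called by edgeR, while DESeq2 called Acadvl (adjusted p = 0.00852) and Acads (adjusted p = 0.0189).

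The later steps of the mitochondrial cycle are carried by single enzymes for shorter chains and by the trifunctional protein, made of Hadha and Hadhb, for longer ones. Acaa2, the thiolase for medium and short chains, was the gene with the smallest p of all 34 and was at 522, 514 and 452 CPM in sgCtrl 5.1, 7.1 and 7.2 and 912, 742 and 964 CPM in sgPrdx2 1.1, 1.3 and 3.2, which is 496 ± 38.3 CPM in sgCtrl livers against 873 ± 116 CPM in sgPrdx2 livers (SD, n = 3). The lowest sgPrdx2 liver was well above the highest sgCtrl liver, and the difference passed the test (log2 fold change 0.81, SE 0.16, adjusted p = 0.0455); the adjusted p went above 0.05 whichever of the 6 livers was left out (0.0526 to 0.165) and with total counts alone (log2 fold change 0.43, adjusted p = 0.0590), and with scaling to hepatocyte markers its log2 fold change was -0.0064 (adjusted p = 0.976). Echs1, the short-chain enoyl-CoA hydratase, was at 158, 196 and 173 CPM in the sgCtrl livers and 292, 251 and 262 CPM in the sgPrdx2 livers (log2 fold change 0.61, SE 0.14, adjusted p = 0.0599). Hadh, the 3-hydroxyacyl-CoA dehydrogenase, was at 336, 324 and 299 CPM in the sgCtrl livers and 503, 416 and 485 CPM in the sgPrdx2 livers (log2 fold change 0.55, SE 0.14, adjusted p = 0.0721). In both the lowest sgPrdx2 liver exceeded the highest sgCtrl liver, and neither was called by edgeR, while DESeq2 called both (adjusted p = 0.00124 for Echs1 and 0.00236 for Hadh). Per kilobase of transcript (RPKM), Acaa2 had the highest mean of the 34 genes, with 327 ± 25.3 RPKM in sgCtrl and 576 ± 76.4 RPKM in sgPrdx2 livers, although within the sgCtrl livers the peroxisomal thiolase Acaa1b came within its spread. Hadh stood at 179 ± 10.6 RPKM in sgCtrl and 261 ± 25.7 RPKM in sgPrdx2 livers.

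The genes of the trifunctional protein had smaller differences than these single enzymes. Hadha was at 372, 347 and 358 CPM in the sgCtrl livers and 419.6, 378 and 452 CPM in the sgPrdx2 livers (log2 fold change 0.21, SE 0.14, adjusted p = 0.362), and Hadhb at 64.5, 56.2 and 60.4 CPM in the sgCtrl livers and 64.7, 65.1 and 68.2 CPM in the sgPrdx2 livers (log2 fold change 0.13, SE 0.12, adjusted p = 0.524). The groups did not overlap in either gene, but in Hadhb the lowest sgPrdx2 liver and sgCtrl 5.1 were within 1% of each other. Both genes lie head to head on chromosome 5 and are transcribed away from each other, with 85 bases between them in GENCODE release M21, and the 300-base windows around their starts (250 bases before to 50 after) share 228 bases. The Hadhb window (chr5:30155003-30155302, plus strand, GRCm38.p6, RefSeq) is shown because it lies around the Hadhb start and holds those 228 bases. The RefSeq start of Hadha lies just outside it, and the shared bases lie before that start. GENCODE M21 extends Hadha farther, to base 30155162, so that part of the Hadhb window lies within Hadha in that annotation. Capitals mark the bases that also lie in the window of Hadha (chr5:30154931-30155230, minus strand).
Hadhb: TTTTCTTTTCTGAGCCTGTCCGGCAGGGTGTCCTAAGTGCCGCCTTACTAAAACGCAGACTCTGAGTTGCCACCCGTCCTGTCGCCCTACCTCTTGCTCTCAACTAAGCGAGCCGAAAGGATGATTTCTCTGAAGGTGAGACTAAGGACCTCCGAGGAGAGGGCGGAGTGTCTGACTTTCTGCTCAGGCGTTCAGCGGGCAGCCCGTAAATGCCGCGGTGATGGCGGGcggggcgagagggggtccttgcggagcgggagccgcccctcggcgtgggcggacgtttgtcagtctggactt
Per kilobase, Hadha RNA was 89.4 ± 3.08 RPKM in sgCtrl and 104 ± 9.34 RPKM in sgPrdx2 livers and Hadhb RNA 29.0 ± 2.01 RPKM in sgCtrl and 31.7 ± 0.902 RPKM in sgPrdx2 livers. Of the 50-base stretches of Hadhb transcripts, 19.7% also occur in other genes, among them Gm13910 and Gm9108, so that its reads could be set aside or shared in counting.

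**Figure D3:**
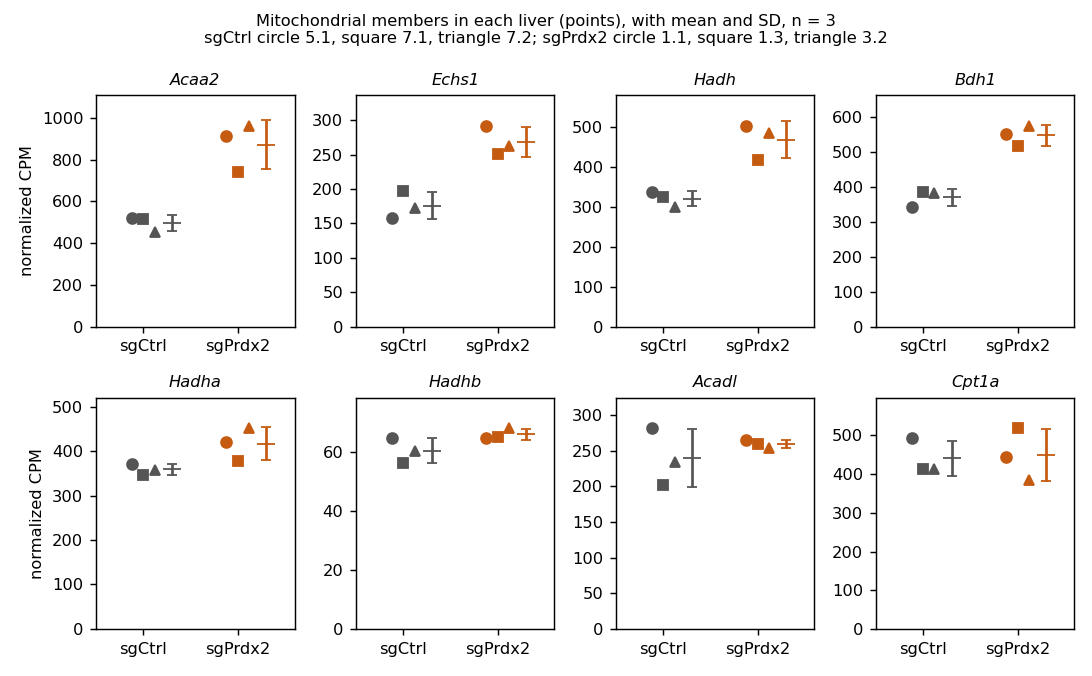
Normalized CPM of 8 mitochondrial genes in each liver (points), with mean and SD of 3 livers beside them; vertical axes start at 0. Acaa2, Echs1, Hadh and Bdh1 are separated between groups with this TMM scaling, Hadha and Hadhb barely so, and Acadl and Cpt1a overlap.

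Unsaturated fatty acids need isomerases and a reductase to pass the cycle. Eci1, the mitochondrial enoyl-CoA isomerase, was 84.9 ± 11.7 CPM in sgCtrl livers against 123 ± 26.2 CPM in sgPrdx2 livers (log2 fold change 0.54, SE 0.19, adjusted p = 0.135), without overlap. Decr1, the mitochondrial dienoyl-CoA reductase, was 181 ± 21.4 CPM in sgCtrl livers against 239 ± 34.9 CPM in sgPrdx2 livers (log2 fold change 0.40, SE 0.16, adjusted p = 0.178), and sgPrdx2 1.3 was just below sgCtrl 5.1. Eci2, an isomerase of peroxisomes and mitochondria, varied within sgCtrl from 114 to 225 CPM and overlapped (log2 fold change 0.33, SE 0.28, adjusted p = 0.487). Electrons from the dehydrogenases pass to the electron transfer flavoprotein, whose subunits are Etfa and Etfb, and on to ubiquinone through Etfdh. Etfa was at 212, 246 and 254 CPM in the sgCtrl livers and 351, 323 and 338 CPM in the sgPrdx2 livers (log2 fold change 0.51, SE 0.14, adjusted p = 0.0790), without overlap. Etfb had the largest log2 fold change of the 34 genes, at 59.8, 50.6 and 61.3 CPM in the sgCtrl livers and 87.3, 81.8 and 164 CPM in the sgPrdx2 livers (log2 fold change 0.96, SE 0.27, adjusted p = 0.0872). In sgPrdx2 3.2 it was nearly at 2 times the level of the other 2 sgPrdx2 livers, and without that liver its log2 fold change was 0.57 (adjusted p = 0.0563). Of the 50-base stretches of Etfb, 44.8% also lie in the overlapping gene Gm45233, which had 0 counts in all 6 livers. Reads lying in both genes could be set aside in counting, so these 0 counts do not show that no Etfb reads were lost. With a transcript length trend removed in each library, the log2 fold change of Etfb was 0.66. Etfdh overlapped (log2 fold change 0.21, SE 0.17, adjusted p = 0.478), with sgPrdx2 3.2 the lowest of all 6 livers.

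Ketone body genes pointed the same way with TMM. Bdh1, the dehydrogenase that turns acetoacetate into 3-hydroxybutyrate, was at 341, 386 and 382 CPM in sgCtrl 5.1, 7.1 and 7.2 and 551, 516 and 575 CPM in sgPrdx2 1.1, 1.3 and 3.2 (log2 fold change 0.57, SE 0.14, adjusted p = 0.0625). Acat1, the mitochondrial acetoacetyl-CoA thiolase, was at 336, 368 and 334 CPM in the sgCtrl livers and 569, 486 and 394 CPM in the sgPrdx2 livers (log2 fold change 0.48, SE 0.17, adjusted p = 0.136). In both, each sgPrdx2 liver was above each sgCtrl liver; edgeR called neither and DESeq2 both (adjusted p = 0.000449 for Bdh1 and 0.0415 for Acat1). Outside the 34 genes, Oxct1, the transferase with which other tissues burn ketone bodies and which hepatocytes hardly express, was 40.2 ± 1.51 CPM in sgCtrl livers against 28.7 ± 0.970 CPM in sgPrdx2 livers (log2 fold change -0.48, SE 0.11, adjusted p = 0.0530), lower in each sgPrdx2 liver.

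The thioesterases, which release free fatty acids from coenzyme A, had log2 fold changes of both signs. Acot2, the mitochondrial one, had the lowest log2 fold change of the 34 genes, at 33.9, 11.6 and 22.5 CPM in sgCtrl 5.1, 7.1 and 7.2 and 8.20, 8.97 and 12.3 CPM in sgPrdx2 1.1, 1.3 and 3.2 (log2 fold change -1.21, SE 0.36, adjusted p = 0.0990); sgCtrl 7.1 lay below sgPrdx2 3.2, so that the groups overlapped. Without sgCtrl 5.1 its log2 fold change was -0.80 (adjusted p = 0.251), while without sgCtrl 7.1 it was -1.52 and passed the test (adjusted p = 0.0389). Of its 50-base stretches, 27.7% also occur in neighbouring genes of its family, mostly Acot1. Acot4, the peroxisomal one for dicarboxylic chains, had nearly equal means and a wide spread, at 108, 36.5 and 32.4 CPM in the sgCtrl livers and 78.7, 47.3 and 51.5 CPM in the sgPrdx2 livers (log2 fold change 0.00, SE 0.45, adjusted p = 0.998). Acot12, a cytosolic acetyl-CoA thioesterase, was 88.2 ± 10.1 CPM in sgCtrl livers against 108 ± 8.94 CPM in sgPrdx2 livers (log2 fold change 0.29, SE 0.14, adjusted p = 0.243), without overlap.

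The peroxisomal cycle ends with a thiolase too. Acaa1a and Acaa1b encode nearly identical forms of it, and lie on chromosome 9 at 119339676 to 119350299 (plus strand) and 119148023 to 119157093 (minus strand) of GRCm38. Acaa1a, the peroxisomal gene with the smallest p, was at 151, 142 and 132 CPM in sgCtrl 5.1, 7.1 and 7.2 and 212, 198 and 272 CPM in sgPrdx2 1.1, 1.3 and 3.2 (log2 fold change 0.68, SE 0.16, adjusted p = 0.0599), with every sgPrdx2 liver above every sgCtrl liver. Acaa1b was more abundant and spread widely in both groups, at 713, 522 and 353 CPM in the sgCtrl livers and 725, 503 and 818 CPM in the sgPrdx2 livers (log2 fold change 0.37, SE 0.28, adjusted p = 0.452), and overlapped. Per kilobase, Acaa1b stood at 313 ± 107 RPKM in sgCtrl and 404 ± 95.7 RPKM in sgPrdx2 livers and Acaa1a at 80.5 ± 5.30 RPKM in sgCtrl and 129 ± 22.4 RPKM in sgPrdx2 livers. Of their 50-base stretches, 30.5% of Acaa1b and 12.9% of Acaa1a also occur elsewhere, nearly all of them in the other gene of the pair, so that the split of reads between them is uncertain. Decr2, the peroxisomal dienoyl-CoA reductase, did not overlap, at 137 ± 21.2 CPM in sgCtrl livers against 212 ± 12.9 CPM in sgPrdx2 livers (log2 fold change 0.62, SE 0.15, adjusted p = 0.0660). The bifunctional enzymes of the cycle's middle steps overlapped: Hsd17b4, which also serves branched chains and bile acid precursors, was 269 ± 16.2 CPM in sgCtrl livers against 304 ± 48.2 CPM in sgPrdx2 livers (log2 fold change 0.18, SE 0.16, adjusted p = 0.508), and Ehhadh, which serves straight and dicarboxylic chains, was 214 ± 69.5 CPM in sgCtrl livers against 205 ± 55.8 CPM in sgPrdx2 livers (log2 fold change -0.06, SE 0.28, adjusted p = 0.905).

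The peroxisomal membrane and exit genes overlapped as well. Abcd3, a transporter of acyl-CoA into peroxisomes, was 255 ± 37.9 CPM in sgCtrl livers against 301 ± 27.9 CPM in sgPrdx2 livers (log2 fold change 0.24, SE 0.16, adjusted p = 0.383). Pex11a, a membrane protein of peroxisome division and the peroxisomal gene with the lowest log2 fold change, was at 166, 65.5 and 63.6 CPM in sgCtrl 5.1, 7.1 and 7.2 and 72.0, 60.2 and 76.7 CPM in sgPrdx2 1.1, 1.3 and 3.2 (log2 fold change -0.50, SE 0.36, adjusted p = 0.422). Its lower sgPrdx2 mean came with 1 high control: without sgCtrl 5.1 the log2 fold change was 0.11 (adjusted p = 0.748). Crot, the octanoyltransferase that sends shortened chains out as carnitine esters, ranged from 354 to 706 CPM within sgCtrl (log2 fold change 0.41, SE 0.26, adjusted p = 0.361). Crat, the acetyltransferase shared by mitochondria and peroxisomes, was at 111, 53.7 and 65.0 CPM in the sgCtrl livers and 53.1, 48.8 and 60.2 CPM in the sgPrdx2 livers (log2 fold change -0.50, SE 0.26, adjusted p = 0.271), and without sgCtrl 5.1 its log2 fold change was -0.14 (adjusted p = 0.687).

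The control liver 5.1 was the highest of all 6 livers in 6 of 34 genes, which is near an even share for 1 of 6 livers, namely Acadl, Acot2, Acot4, Pex11a, Ehhadh and Crat, while the other 2 sgCtrl livers were highest in 0, sgPrdx2 1.1 in 13, 1.3 in 1 and 3.2 in 14. In these genes, named because 5.1 was highest in them, its level against the mean of sgCtrl 7.1 and 7.2 was 3.15 times as high for Acot4, 2.57 times for Pex11a, 1.99 times for Acot2, 1.87 times for Crat, 1.69 times for Ehhadh and 1.3 times for Acadl. Of the 4 fatty acid omega-hydroxylases of the Cyp4a family looked at, 3 were highest among the sgCtrl livers in 5.1: Cyp4a10 was at 271, 112 and 73.1 CPM in the sgCtrl livers and 183, 178 and 160.4 CPM in the sgPrdx2 livers, Cyp4a14 at 539, 164 and 147 CPM in the sgCtrl livers and 284, 243 and 173 CPM in the sgPrdx2 livers, and Cyp4a31 at 58.6, 19.0 and 51.1 CPM in the sgCtrl livers and 13.3, 23.9 and 25.5 CPM in the sgPrdx2 livers. Cyp4a32 was at 4.89, 5.16 and 3.98 CPM in the sgCtrl livers and 9.07, 9.89 and 7.19 CPM in the sgPrdx2 livers, with 5.1 between the other controls. Ppara itself was at 37.4, 42.5 and 25.3 CPM in the sgCtrl livers and 49.4, 42.2 and 23.5 CPM in the sgPrdx2 livers (log2 fold change 0.13, SE 0.29, adjusted p = 0.802), and there sgCtrl 5.1 lay between the other controls. Leaving sgCtrl 5.1 out turned Ehhadh to 0.24 (adjusted p = 0.649) and moved Acot4 to 0.78 (adjusted p = 0.184), Acaa1b to 0.64 (adjusted p = 0.280) and Eci2 to 0.66 (adjusted p = 0.214), and the remaining 2 sgCtrl livers then left 0 genes called of the 34 and 0 of all genes (3114 at an unadjusted p under 0.05).

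**Figure D4:**
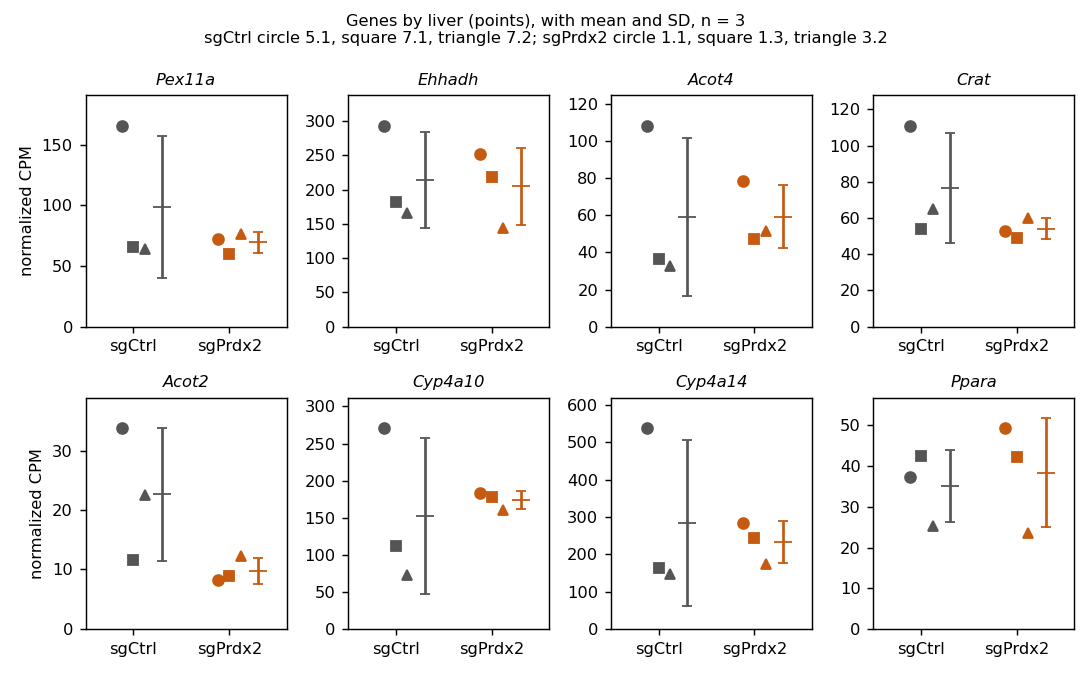
Normalized CPM of 5 of the genes in which sgCtrl 5.1 (grey circle) was the highest of 6 livers, of the omega-hydroxylases Cyp4a10 and Cyp4a14, and of Ppara, in each liver, with mean and SD (n = 3). For Pex11a the circle is at 166 CPM and the other 5 livers are between 60.2 and 76.7 CPM; Ppara does not show this pattern.

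Other genes of the same pathways included 6 that were called by edgeR, all of them higher with TMM, in further mitochondrial and peroxisomal lists. The shares of all genes tested, higher and lower, were 1.79 and 1.54% for edgeR calls. They were 13.0 and 11.9% at an unadjusted p under 0.05 and 7.12 and 5.32% for DESeq2 calls. Of 19 further mitochondrial genes of fatty acid and ketone metabolism, 14 had a positive sign with TMM, 2 were called higher and 0 lower by edgeR (9 and 2 at an unadjusted p under 0.05, 7 and 1 by DESeq2), and the median was 0.34. The called ones were Mcee, the methylmalonyl-CoA epimerase of odd-chain and branched-chain breakdown (29.4 ± 2.42 CPM in sgCtrl livers against 47.5 ± 5.83 CPM in sgPrdx2 livers; log2 fold change 0.69, SE 0.13, adjusted p = 0.0439), and Hsd17b10, a dehydrogenase of branched short chains (81.9 ± 2.52 CPM in sgCtrl livers against 141 ± 27.0 CPM in sgPrdx2 livers; log2 fold change 0.78, SE 0.16, adjusted p = 0.0471). Of 19 further peroxisomal genes tested (Acot5 had too few counts), 15 had a positive sign, 4 were called higher and 0 lower by edgeR (9 and 1 at an unadjusted p under 0.05, 9 and 1 by DESeq2), and the median was 0.37. These 4 were Pecr, the trans-2-enoyl-CoA reductase (63.4 ± 11.9 CPM in sgCtrl livers against 156 ± 22.2 CPM in sgPrdx2 livers; log2 fold change 1.3, SE 0.18, adjusted p = 0.0328), Amacr, the racemase of branched chains (log2 fold change 0.82, SE 0.14, adjusted p = 0.0392), Phyh, the phytanoyl-CoA hydroxylase (log2 fold change 0.88, SE 0.15, adjusted p = 0.0394), and Hacl1, the lyase that follows it in alpha-oxidation (log2 fold change 0.64, SE 0.13, adjusted p = 0.0455). Amacr, Phyh and Hacl1 act on branched chains before beta-oxidation. Leaving out sgCtrl 5.1, sgCtrl 7.2, sgPrdx2 1.1 or sgPrdx2 1.3 left 0 calls by edgeR in these and the following lists.

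Over all genes, 16.7% had no overlap with sgPrdx2 higher, 13.0% were higher at an unadjusted p under 0.05 and 7.12% were called higher by DESeq2. The shares for lower were 17.5, 11.9 and 5.32% in that order. Of 15 peroxins, which build peroxisomes and import their enzymes, 15 had a positive sign with TMM and 0 were called by edgeR (median 0.33; 8 at an unadjusted p under 0.05, 5 by DESeq2). Of 30 subunits of the respiratory chain and ATP synthase, 30 had a positive sign, 28 did not overlap and 0 were called by edgeR (median 0.56; 27 at an unadjusted p under 0.05, 24 by DESeq2), and transcripts of the mitochondrial genome took 2.79 to 3.50% of counts in sgCtrl livers against 3.08 to 4.19% in sgPrdx2 livers. Genes regulated by PPARα outside beta-oxidation did not share that sign: of 17 tested, some of them also in the mitochondrial list, such as the muscle isoform Cpt1b, 6 were positive and 11 negative, with a median of -0.25. One was called by edgeR (DESeq2 called 3 higher and 3 lower), Cyp4a32 (4.68 ± 0.620 CPM in sgCtrl livers against 8.72 ± 1.39 CPM in sgPrdx2 livers; log2 fold change 0.90, SE 0.18, adjusted p = 0.0471), a low gene of a family with near-identical copies. The others with an adjusted p under 0.10 by edgeR were Fabp1, the liver fatty acid binding protein (log2 fold change 1.17, SE 0.30, adjusted p = 0.0722), and Creb3l3, a transcription factor of the fasted liver (log2 fold change 0.75, SE 0.21, adjusted p = 0.0891), both higher in each sgPrdx2 liver, and the lipid droplet proteins Cidec (log2 fold change -0.95, SE 0.24, adjusted p = 0.0699) and Plin2 (log2 fold change -0.50, SE 0.15, adjusted p = 0.0967), both lower in each. Of 16 regulators, 10 were positive and 1 was called higher by edgeR (3 higher and 1 lower by DESeq2), Sirt3, the mitochondrial deacetylase of oxidation enzymes (58.8 ± 8.10 CPM in sgCtrl livers against 105 ± 9.95 CPM in sgPrdx2 livers; log2 fold change 0.84, SE 0.15, adjusted p = 0.0409), with a median of 0.20. The 9 housekeeping genes had a median of -0.04, and 0 were called by edgeR (1 higher and 1 lower at an unadjusted p under 0.05, 1 lower by DESeq2). With hepatocyte marker scaling the median of all genes itself became -0.82, and with total counts alone -0.39. The positive counts in these lists are given for TMM and need not hold with those scalings.

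**Figure D5:**
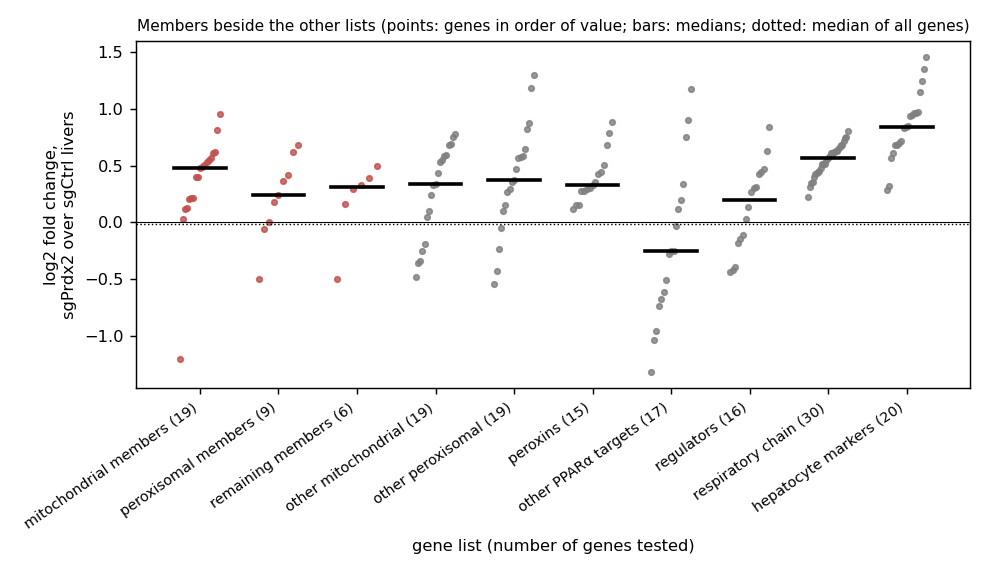
Log2 fold change of each tested gene (points, sorted within a list), sgPrdx2 over sgCtrl livers with TMM scaling, for the 34 genes by compartment (red) and for other lists (grey), with the median as a bar and the median of all genes dotted. All 30 respiratory chain genes and all 20 hepatocyte markers lie above zero with this scaling, while 11 of 17 other PPARα targets lie below.

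PPARα binds, with RXR, to a direct repeat of a half-site spaced by 1 base (DR1). The DR1 pattern, AGGTCA repeated after any 1 base, was searched on both strands of the windows from 250 bases before to 50 after the start, taken from RefSeq on GRCm38.p6. Of the 34 genes, 29 had an entry, with 32 windows; Acaa2, Hsd17b4, Decr1, Acat1 and Crat had none. With up to 2 mismatches, 4 of 32 windows (12.5%) held a match, against 1268 of 32851 windows of all genes (3.86%); with up to 1 mismatch 1 of 32 (3.12%) against 182 (0.554%), and with none 0 against 13. The half-site AGGTCA, which is part of that pattern, was in 6 of 32 windows (18.8%) against 16.3% of all, and TCAAGGTCA, the extended half-site of estrogen-related receptors, which holds AGGTCA too, in 0 of 32 against 0.423% of all. The 4 windows with a match are shown to place these letters beside the RNA values above, and capitals mark the match, which runs on the opposite strand in Etfa, Acot4 and Acot12. They are Echs1 (chr7:140116372-140116671, minus strand, first base of the match at position -83, with the start as 0), Etfa (chr9:55512194-55512493, minus strand, position -77), Acot4 (chr12:84038129-84038428, plus strand, position -13) and Acot12 (chr13:91741271-91741570, plus strand, position -110, with 1 mismatch).
Echs1: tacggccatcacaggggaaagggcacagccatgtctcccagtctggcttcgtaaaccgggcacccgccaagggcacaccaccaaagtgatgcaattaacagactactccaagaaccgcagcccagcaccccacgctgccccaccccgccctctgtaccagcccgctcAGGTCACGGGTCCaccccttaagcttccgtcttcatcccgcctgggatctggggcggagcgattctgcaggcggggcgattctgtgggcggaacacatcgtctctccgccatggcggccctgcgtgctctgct
Etfa: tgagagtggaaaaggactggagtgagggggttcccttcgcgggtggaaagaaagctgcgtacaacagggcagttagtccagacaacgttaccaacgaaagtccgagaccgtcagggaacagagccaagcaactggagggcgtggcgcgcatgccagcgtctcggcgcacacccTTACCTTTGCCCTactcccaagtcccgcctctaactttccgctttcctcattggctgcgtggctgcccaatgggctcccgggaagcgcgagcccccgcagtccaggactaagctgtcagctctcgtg
Acot4: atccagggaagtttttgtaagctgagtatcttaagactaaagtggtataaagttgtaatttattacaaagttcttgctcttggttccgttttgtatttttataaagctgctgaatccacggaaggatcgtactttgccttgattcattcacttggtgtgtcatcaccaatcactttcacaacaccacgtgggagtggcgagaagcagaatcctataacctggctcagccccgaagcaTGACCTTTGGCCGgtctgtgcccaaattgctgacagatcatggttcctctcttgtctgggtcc
Acot12: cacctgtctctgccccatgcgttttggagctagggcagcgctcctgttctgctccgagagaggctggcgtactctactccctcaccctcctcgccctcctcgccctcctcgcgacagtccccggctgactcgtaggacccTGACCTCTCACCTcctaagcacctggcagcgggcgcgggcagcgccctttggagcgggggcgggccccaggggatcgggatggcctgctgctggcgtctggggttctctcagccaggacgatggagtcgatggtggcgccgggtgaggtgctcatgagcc
Echs1, Etfa and Acot12 did not overlap between groups and Acot4 did (log2 fold changes 0.61, 0.51, 0.29 and 0.00). Of all 34 genes, 17 did not overlap with sgPrdx2 higher (16.7% of all genes). A link between a match and the RNA values was not tested. A match is a description of these letters and does not show that a factor binds there.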

How the data were processed

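RNA-Seq was performed on whole liver of 3 sgCtrl and 3 sgPrdx2 mice, grouped by their GEO labels and named by mouse number. The authors deposited raw read counts per gene, 37462102 to 56865293 per library, made with HISAT2, HTSeq and GRCm38 according to the submitters' processing notes; versions, gene annotation and strand setting are not given in the sources used here, so reads of overlapping genes on opposite strands may not be told apart. A deposited table of the authors' own DESeq2 comparison (means, fold changes, standard errors, test statistics and p-values) was not used, and 0 columns of other samples were left out.

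Counts were filtered with filterByExpr (minimum count 10) and tested with edgeR 4.0.16 (quasi-likelihood test, two-sided, TMM scaling, limma 3.58.1, R 4.3.3), with Benjamini-Hochberg adjustment over all 17032 genes tested and calls at an adjusted p under 0.05. Errors are SD over n = 3 livers, or the standard error of the fitted log2 fold change; nothing beyond the mouse numbers says how animals were housed or bred together. CPM values are counts scaled to a common total with the TMM-scaled library size, and RPKM divides them by exon length in GENCODE M21. Percentages of 50-base stretches shared between genes come from GENCODE M21 transcripts, and promoter windows from RefSeq (GRCm38.p6).

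The 34 genes and all lists were chosen with earlier results of these data known, so no list was tested as a whole; some genes of the further lists are counted there but not reported singly here. Per-liver values were given for called genes, the smallest p and lowest log2 fold change per compartment, ketone body genes, synthetases and the Acaa1 pair, and values of further lists for up to 3 called genes with the smallest p plus Slc25a20 and Ppara; Hacl1, Cyp4a10, Cyp4a14, Cyp4a31, Oxct1, Fabp1, Creb3l3, Cidec, Plin2 and other per-liver values beyond that rule were added after their values were seen. Alternatives were other scalings (RLE, upper quartile, housekeeping genes, hepatocyte markers), other filters, DESeq2 1.42.0, each liver left out, other thresholds and, chosen after seeing the data, removal of a transcript length trend and scaling by total counts.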

Additional observations from a re-analysis of the deposited data

How the results depend on the processing

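The count of the 34 genes called (1, Acaa2) became 13 with hepatocyte marker scaling (0 of them higher), 4 with no filter, 13 with DESeq2, 3 with a length trend removed, 0 at an adjusted p under 0.01, 10 at 0.10, and 0 to 1 with a liver left out; the 1 call without sgCtrl 7.1 was Acot2. The count over all genes (567) became 11486, 1128, 2118, 914, 0 and 1767 under the same settings in that order, 3247 with total counts alone, and 0 to 619 with a liver left out, being 0 without sgCtrl 5.1, sgCtrl 7.2, sgPrdx2 1.1 or sgPrdx2 1.3 (3114 to 3993 genes at an unadjusted p under 0.05). Calls in the other pathway lists (8) became 45 with hepatocyte marker scaling, 18 with no filter, 57 with DESeq2, 16 with a length trend removed, 16 with total counts alone and 0 to 13 with a liver left out. The length trend and total counts were tried after seeing the data. Positive signs, 30 of 34 genes with TMM, numbered 30 with RLE, 29 with upper-quartile and 31 with housekeeping gene scaling. They numbered 30 with a length trend removed, 17 with total counts alone and 1 with hepatocyte markers. The mitochondrial median (0.48) was -0.33 with hepatocyte markers, 0.36 with a length trend removed, 0.11 with total counts, 0.35 as a mean over genes and 0.37 to 0.52 with a liver left out, and the peroxisomal median (0.24) was -0.58 with hepatocyte markers, -0.13 with total counts and 0.14 to 0.35 with a liver left out. The median of all genes was itself -0.82 with hepatocyte markers and -0.39 with total counts; set against it, the mitochondrial median lay 0.49 higher in both settings and the peroxisomal median 0.24 and 0.25 higher. The difference of the 2 medians stayed between 0.11 and 0.32 with a liver left out. With a length trend removed the mitochondrial and peroxisomal medians were 0.36 and 0.22, a smaller difference than in the main fit (0.48 and 0.24).

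With hepatocyte marker scaling the log2 fold changes that turned negative were Prdx2 -0.80, Cpt1a -0.77, Cpt2 -0.42, Acadvl -0.33, Acadl -0.70, Acadm -0.59, Acads -0.20, Hadha -0.60, Hadhb -0.68, Echs1 -0.19, Hadh -0.27, Acaa2 -0.0064, Eci1 -0.30, Decr1 -0.43, Etfa -0.29, Etfdh -0.57, Acat1 -0.31, Bdh1 -0.23, Abcd3 -0.58, Hsd17b4 -0.62, Acaa1a -0.15, Acaa1b -0.50, Decr2 -0.20, Crot -0.34, Acot4 -0.88, Acsl1 -0.30, Acsl5 -0.63, Acad11 -0.42, Eci2 -0.54, Acot12 -0.51, Slc25a20 -0.59 and Ppara -0.66. With total counts alone they were Prdx2 -0.37, Cpt1a -0.33, Acadl -0.25, Acadm -0.16, Hadha -0.16, Hadhb -0.25, Etfdh -0.15, Abcd3 -0.13, Hsd17b4 -0.19, Acaa1b -0.030, Acot4 -0.39, Acsl5 -0.21, Eci2 -0.068, Acot12 -0.075, Slc25a20 -0.14 and Ppara -0.22. Values near 0 changed sign in further settings: Acot4 -0.0016 with at least 10 counts in every liver, Prdx2 -0.0050 and Acot4 -0.0039 with no filter, Prdx2 -0.0046 and Acot4 -0.014 with upper-quartile scaling, Ehhadh 0.0021 with housekeeping scaling, Prdx2 -0.11 with the length trend removed. With a liver left out they were Prdx2 -0.052, Pex11a 0.11 and Ehhadh 0.24 without sgCtrl 5.1, Prdx2 -0.0081, Cpt1a -0.014 and Acot4 -0.25 without sgCtrl 7.1, Cpt1a -0.0136, Acot4 -0.29 and Ppara -0.057 without sgCtrl 7.2, Acot4 -0.26 and Ppara -0.092 without sgPrdx2 1.1, Cpt1a -0.071 without sgPrdx2 1.3, Prdx2 -0.17 and Ehhadh 0.15 without sgPrdx2 3.2. Prdx2 passed the test with hepatocyte marker scaling (adjusted p = 0.00506). In that setting 11486 of 17032 genes tested were called, and the median of all genes, -0.82, was close to the Prdx2 value of -0.80. The cause of these shifts was not tested. No paired analysis was possible because the mouse numbers in the labels differ between the groups.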
